A study of Mus musculus with 8 samples.

Results

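The difference between genotypes in the size of the response to LPS was measured gene by gene in mouse bone marrow-derived macrophages with and without PTIP. For each gene the LPS change of the knockout cells (mean after LPS minus mean at 0 h) was reduced by the LPS change of the wildtype cells. A difference above 0 is a larger rise, a smaller fall or a turn from a fall to a rise in the knockout cells. Values are rlog units, a log2 scale on which genes with few reads are pulled toward their mean. A difference of 1 is a doubling of the response ratio where this pull is small. For genes with few reads it can stand for a larger ratio. A gene was included if its rlog averaged 3 or more over the 8 libraries, which held for 11543 of the 55226 genes in the table. Of the others, 26727 were listed at 0 in every library and 16956 lay below the minimum. Just inside the minimum was Rps19-ps4 with a mean rlog of 3.0003, and just outside it was Tlcd1 with 2.998.

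The cells came from femurs of C57BL/6 mice labelled PtipWT (WT below) or PtipcKO, a conditional knockout of PTIP (cKO below), and had been cultured for 7 days with 10% serum and 10 ng/ml M-CSF, the growth factor that turns marrow cells into macrophages. Each genotype was sampled without LPS (0 h) and after 6 h with LPS at 100 ng/ml, and each of these 4 groups held 2 libraries of poly(A) RNA. The study's title names PTIP as a regulator of inflammatory responses, and the comparison addresses whether its loss changes how strongly each gene responds to LPS. The Cre line, the deleted exons and the age of the mice are not stated in the labels. The labels do not say whether libraries with the same number come from 1 mouse, and the p-values measure only the spread between these libraries.

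LPS, a component of the outer membrane of Gram-negative bacteria, is recognised by the receptor TLR4 with its co-receptors CD14 and MD-2. The adaptors MyD88 and TRIF pass the signal to NF-kB, AP-1 and interferon regulatory factors. Primary response genes are transcribed directly by these factors, and secondary response genes also need newly made proteins, among them interferon beta, which switches on interferon-stimulated genes. PTIP, the protein encoded by Paxip1, has BRCT domains and is a subunit of the MLL3 and MLL4 complexes, which methylate histone H3 at lysine 4. It also takes part in the response to DNA damage.

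Paxip1 itself was at 4.50 and 4.50 in the WT libraries at 0 h, 3.82 and 4.08 in WT with LPS, 2.54 and 2.48 in cKO before LPS, and 2.54 and 2.63 in cKO with LPS. The genotypes did not overlap at either time. Paxip1 was lower in cKO by 1.99 ± 0.18 (SE) at 0 h and by 1.36 ± 0.18 after LPS, and both gaps passed the test (limma, adjusted p = 0.0069 and 0.016). Within a group the libraries correlated across genes at r = 0.987 to 0.992. Depth is unknown, because the table holds transformed values and no counts. The mean of 12 macrophage markers ran from 10.3 to 11.2 in all 8 libraries, against 1.3 to 2.2 for 10 neutrophil markers (Retnlg at 0), 1.2 to 1.9 for 8 T cell markers, 0.87 to 1.4 for 7 B cell markers, 2.2 to 3.5 for 7 mast cell and basophil markers, 2.7 to 3.7 for 7 dendritic cell markers, below 0 for 6 erythroid markers (2 at 0, among them Hbb-bt) and -0.05 to 0.76 for 7 fibroblast markers. Among the macrophage markers, Cd163 lay below the minimum, and Spi1, the gene of the macrophage transcription factor PU.1, stood apart between libraries of 1 group, with 9.17 and 11.94 in cKO before LPS, then 10.80 and 12.50 with LPS, against 8.17 to 9.09 in WT. In bulk RNA, fewer cells of a type and less RNA per cell cannot be told apart.

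The LPS changes of the genotypes followed each other closely across genes. The LPS change itself passed an adjusted p of 0.05 for 4871 genes (42.2%) in WT and for 4275 genes (37%) in cKO. Across the 11543 genes the change in cKO followed the change in WT with r = 0.930 (Spearman's correlation 0.874), and across the 1296 genes induced by LPS with r = 0.906. These 2 changes share no library, and genes are not independent replicates.

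**Figure D1:**
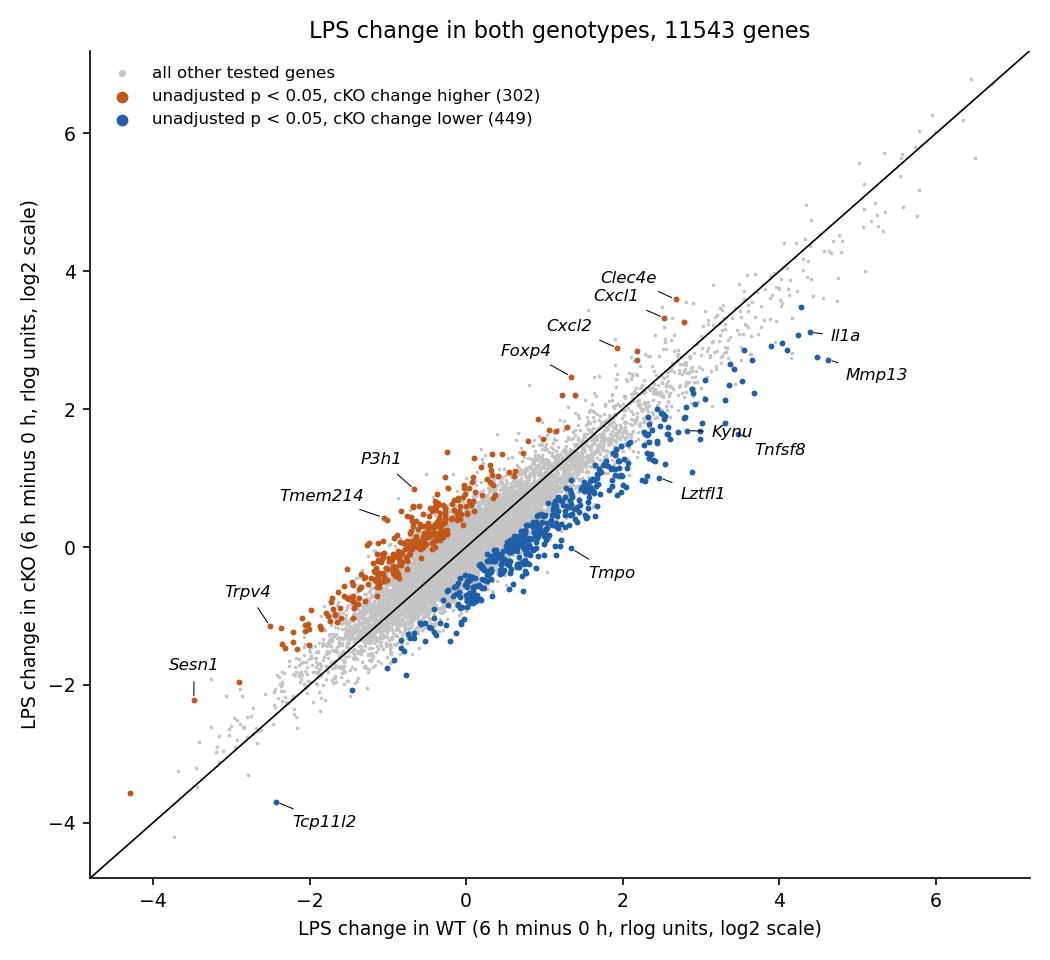
LPS change in WT (horizontal axis) against LPS change in cKO (vertical axis), both in rlog units, 1 point a gene for 11543 genes, with the line of equal change. The 302 genes in orange lay above the line and the 449 in blue below it at an unadjusted p under 0.05, and none passed the adjusted threshold.

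No single gene passed the test for the difference. With limma 0 of 11543 genes reached an adjusted p of 0.05 in either direction (0%), and the smallest adjusted p was 0.643. At an unadjusted p under 0.05 the difference was above 0 for 302 genes (2.62%) and below 0 for 449 (3.89%), together 6.51% of the genes tested. In every one of the other 17 settings the count at the adjusted threshold was also 0, and the smallest adjusted p in any of them was 0.0997, without WT LPS replicate 2. In simulated libraries of this size, built on the same 11543 genes, the test recovered 9 of 50 genes with a true difference of 1, 36 of 50 with 2, 42 of 50 with 3 and 48 of 50 with 4, with 5 false calls among 11343 unchanged genes. The simulation took each gene's observed spread within groups as its true spread and drew the genes independently. It held no shift shared by the genes of a library, so these rates need not hold for the deposited data. In the deposited data 133 genes (1.15%) had a difference of at least 1 in size. A different measure asks whether all 4 cKO changes, each LPS library against each 0 h library, lay on the same side of all 4 WT changes. All cKO changes lay above all WT changes for 1033 genes (8.95%) and below them for 1420 (12.3%), and of these 300 (2.6%) and 448 (3.88%) also had an unadjusted p under 0.05. The genes named below are therefore given by their values with the SE of the model. Every one of their differences had an adjusted p of at least 0.643 (limma). Most were picked by the size of this difference, which favours a wide gap between genotypes at 0 h or after LPS. Where such a gap passed its own test, this is no further support for the difference.

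Genes that LPS induced had smaller rises in cKO at the median, and genes that LPS lowered had smaller falls. Genes were put in these classes by the LPS change averaged over both genotypes (adjusted p under 0.05 and a change of at least 1), a quantity that is uncorrelated with the difference in this balanced design. Over 1296 LPS-induced genes (11.2%) the median rise was 1.70 in WT and 1.496 in cKO. Their difference had a median of -0.20 (quartiles -0.43 and 0.05), and 70.0% of them lay below 0, against 51.9% and a median of -0.02 over all genes. Among them 16 genes (1.23%) lay above 0 and 134 (10.3%) below 0 at an unadjusted p under 0.05. Leaving out 1 group would take 8 of these 134 genes and 1 of these 16 below the minimum of 3, so they had passed it only through a group where they were high. Over 820 LPS-lowered genes (7.1%) the median change was -1.39 in WT and -1.28 in cKO. Their median difference was 0.13, with 35.1% below 0, 45 genes (5.49%) higher and 10 (1.22%) lower at that threshold. The 9427 genes in neither class had a median of -0.01.

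**Figure D2:**
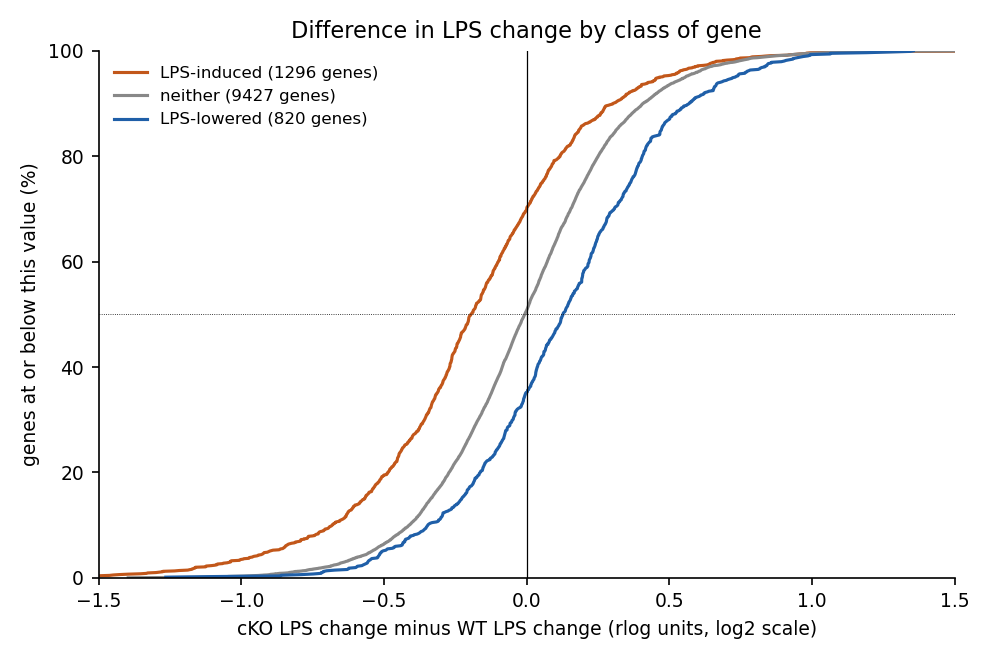
Cumulative share of genes (vertical axis, %) at or below each difference in LPS change (horizontal axis, rlog units, drawn from -1.5 to 1.5) for the LPS-induced, LPS-lowered and remaining genes. The curves cross the dotted 50% line at -0.20, 0.13 and -0.01.

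The shift of the induced class was present in both replicate numbers, with a median of -0.16 between libraries numbered 1 and -0.23 between those numbered 2. When the classes were drawn anew in each setting, it was -0.10 over 1332 genes without cKO 0 h replicate 2 and -0.11 over 1118 genes with quantile normalization, where 60.6% lay below 0. Over the 1296 genes first drawn, these medians were -0.12 and -0.09. The median of the lowered class without cKO 0 h replicate 2 was 0.08 when drawn anew (824 genes) and 0.10 over the 820 genes first drawn. At 0 h the induced genes already lay a median of 0.12 lower in cKO, and after LPS they lay 0.32 lower. By strength of induction the median difference was -0.18 for 882 genes with an averaged rise of 1 to 2, -0.22 for 266 genes with 2 to 3, -0.29 for 96 genes with 3 to 4 and -0.24 for 52 genes with 4 or more. In the strongest group the replicate numbers disagreed in sign, with 0.38 for number 1 and -0.90 for number 2, and in the group before it they gave -0.10 and -0.55. In the authors' deposited table, the log2 fold change of cKO minus that of WT had a median of -0.16 over the induced genes (64.5% below 0), 0.21 over the lowered genes (32.4% below 0) and 0.01 over all genes (48.7% below 0).

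A difference in response can arise at either end. Among the 134 induced genes that were lower at an unadjusted p under 0.05, the genotypes stood further apart after LPS than at 0 h for 123, with a median gap of 0.05 at 0 h and -0.71 after LPS. Among the 16 induced genes that were higher, the gap was wider at 0 h for 11, and 14 had lower values in cKO at 0 h (median gap -0.50 at 0 h and 0.06 after LPS). Over all genes the gap was wider after LPS for 61.3%, and 6020 of 11543 had lower values in cKO at 0 h. Picking genes for a difference above 0 favours low gaps at 0 h and high gaps after LPS, and the reverse below 0. The counts for the picked genes therefore describe these libraries and do not show at which end the difference arose.

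The neutrophil-attracting chemokine Cxcl2 had a larger rise in cKO from a lower start. Cxcl2 was at 11.21 and 11.0001 in WT before LPS, 12.91 and 13.16 in WT with LPS, 9.44 and 9.56 in cKO before LPS, and 12.33 and 12.45 in cKO with LPS. The cKO libraries were the lower ones at both times with no overlap, and the gap at 0 h was 1.60 wide (adjusted p = 0.0063). Cxcl2 rose with LPS by 1.93 in WT and by 2.89 in cKO, a difference of 0.95 ± 0.20 (SE). Cxcl1, its neighbour on chromosome 5 and a ligand of the same receptor CXCR2, was at 8.08 and 8.01 in WT before LPS, 10.40 and 10.76 in WT with LPS, 6.16 and 6.70 in cKO before LPS, and 9.61 and 9.90 in cKO with LPS. The WT libraries were again higher at both times, and the difference in the change was 0.79 ± 0.29 (0.52 to 1.06 as each library was left out). In the authors' deposited table the difference between the fold changes was 1.10 for Cxcl2 and 0.97 for Cxcl1.

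Clec4e, which encodes the pattern recognition receptor Mincle, was at 13.36 and 13.36 in WT at 0 h and 12.69 and 12.20 in cKO at 0 h. After LPS it was at 16.10 and 15.97 in WT and at 16.09 and 15.996 in cKO. The genotypes were separate at 0 h and overlapped after LPS, and the difference was 0.92 ± 0.27. Tgm2, a transglutaminase that crosslinks proteins, was at 10.20 and 10.31 in WT and at 9.12 and 9.10 in cKO before LPS, and at 11.79 and 11.49 in WT and 11.37 and 11.27 in cKO with LPS. The gap in Tgm2 was 1.14 at 0 h, where it passed the test (adjusted p = 0.028), and 0.32 after LPS, where it did not (adjusted p = 0.21). The difference for Tgm2 was 0.82 ± 0.19. Smaller differences of the same direction were found for Relb, an NF-kB subunit, at 0.58, and for Tnfaip3, which encodes the NF-kB inhibitor A20, at 0.52.

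Foxp4 and Boc had like values in both genotypes at 0 h. Foxp4, a forkhead transcription factor, was at 4.65 and 4.92 in WT and at 4.74 and 4.73 in cKO at 0 h, then at 6.32 and 5.93 in WT and at 7.17 and 7.25 in cKO. The genotypes overlapped at 0 h, and both cKO libraries lay above both WT libraries after LPS. This gap of 1.08 passed the test (adjusted p = 0.027), and the difference was 1.13 ± 0.28. Boc, a receptor of the immunoglobulin superfamily in Hedgehog signalling, rose from 2.14 and 2.39 to 3.48 and 3.50 in WT and from 2.47 and 2.17 to 4.44 and 4.62 in cKO. Boc thus also overlapped at 0 h only, with a difference of 0.98 ± 0.28. Its mean rlog of 3.15 would be 2.69 without the cKO libraries after LPS, so it was tested only because it was high in that group, and its value supports nothing further. Mtmr14, a phosphoinositide phosphatase, had a difference of 0.94 ± 0.37.

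Among the genes with smaller rises in cKO were the TNF superfamily ligands Tnfsf8 and Tnfsf15, a cytokine, a matrix protease and an adhesion molecule. Tnfsf8, the ligand of CD30, was at 5.14 and 5.29 in WT before LPS, 8.68 and 8.68 in WT with LPS, 4.90 and 5.53 in cKO before LPS, and 7.17 and 6.55 in cKO with LPS. The groups overlapped at 0 h and were more than 1 unit apart after LPS. Tnfsf8 rose by 3.47 in WT and by 1.64 in cKO, a difference of -1.82 ± 0.37, and the gap after LPS passed the test (adjusted p = 0.016). Tnfsf15, the ligand of the death receptor DR3, was at 7.76 and 7.60 in WT and at 7.44 and 7.77 in cKO before LPS, and at 11.47 and 11.95 in WT and 10.49 and 10.65 in cKO with LPS. It too overlapped at 0 h only, with a difference of -1.07 ± 0.26. Tnfsf8 and Tnfsf15 lie near each other on chromosome 4. Other ligands of this superfamily in the list of inflammatory cytokines lay on both sides of 0. Their differences were 0.34 ± 0.26 for Tnf, 0.66 ± 0.50 for Tnfsf9 and -0.51 ± 0.33 for Tnfsf10.

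Il1a, which encodes the cytokine interleukin-1 alpha, was at 9.35 and 10.22 in WT before LPS, 14.15 and 14.20 in WT with LPS, 9.35 and 9.67 in cKO before LPS, and 12.48 and 12.77 in cKO with LPS. The genotypes overlapped at 0 h, and the cKO libraries after LPS were the lower ones. The rise was 4.39 in WT and 3.11 in cKO, a difference of -1.27 ± 0.37 (-1.71 to -0.84 as each library was left out), and the gap after LPS passed the test (adjusted p = 0.022). Mmp13, a collagenase, was at 7.64 and 6.63 in WT before LPS, 12.46 and 11.06 in WT with LPS, 6.05 and 5.65 in cKO before LPS, and 8.92 and 8.22 in cKO with LPS. Its cKO libraries lay below WT at both times. Mmp13 had the most negative difference of the named genes, -1.91 ± 0.67, with values from -2.61 to -1.21 as each library was left out. Vcam1, an adhesion molecule that binds integrin VLA-4, was at 4.38 and 3.55 in WT and 2.94 and 3.30 in cKO before LPS, and at 8.87 and 8.04 in WT and 6.53 and 5.22 in cKO with LPS. The cKO libraries were the lower ones at both times, by a wider margin after LPS. The difference for Vcam1 was -1.73 ± 0.66 on the rlog scale (-2.39 to -1.08 as each library was left out) and -0.63 in the authors' deposited table. Itga4, which encodes the alpha chain of VLA-4 and was chosen after its values were seen, had a difference of -0.73. Of 28 genes of the adhesion and matrix list, 18 lay below 0 and 10 above. Their median of -0.17 changed sign in 2 of the 17 other settings. Fn1 of this list lay above 0, with a difference of 0.84 ± 0.31.

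Il12rb1, a receptor chain for interleukins 12 and 23, rose from 2.77 and 2.50 to 6.69 and 5.96 in WT and from 2.95 and 3.16 to 5.59 and 4.98 in cKO. Its WT libraries were lower than cKO at 0 h and higher after LPS, and the difference was -1.45 ± 0.42. Lztfl1, a regulator of protein traffic to the cilium, rose from 6.31 and 6.09 to 8.58 and 8.75 in WT and from 6.02 and 6.15 to 7.15 and 7.03 in cKO. The genotypes overlapped at 0 h and were separate after LPS, with a gap of -1.57 (adjusted p = 0.0064). Its difference of -1.46 ± 0.22 stayed between -1.57 and -1.35 as each library was left out. Trim30b, of the TRIM protein family, had a difference of -1.503 ± 0.37. The smallest p of all genes belonged to Kynu, chosen after its values were seen, which encodes the tryptophan-degrading enzyme kynureninase. Kynu was at 8.08 and 8.09 in WT and at 8.46 and 8.48 in cKO before LPS, and at 10.91 and 10.89 in WT and 10.24 and 10.08 in cKO with LPS. The cKO libraries were thus the higher ones before LPS and the lower ones after it, and the difference was -1.13 ± 0.16 (adjusted p = 0.643). Mertk, a receptor for the uptake of dying cells, rose by 2.36 in WT and by 1.35 in cKO (difference -1.01 ± 0.25).

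**Figure D3:**
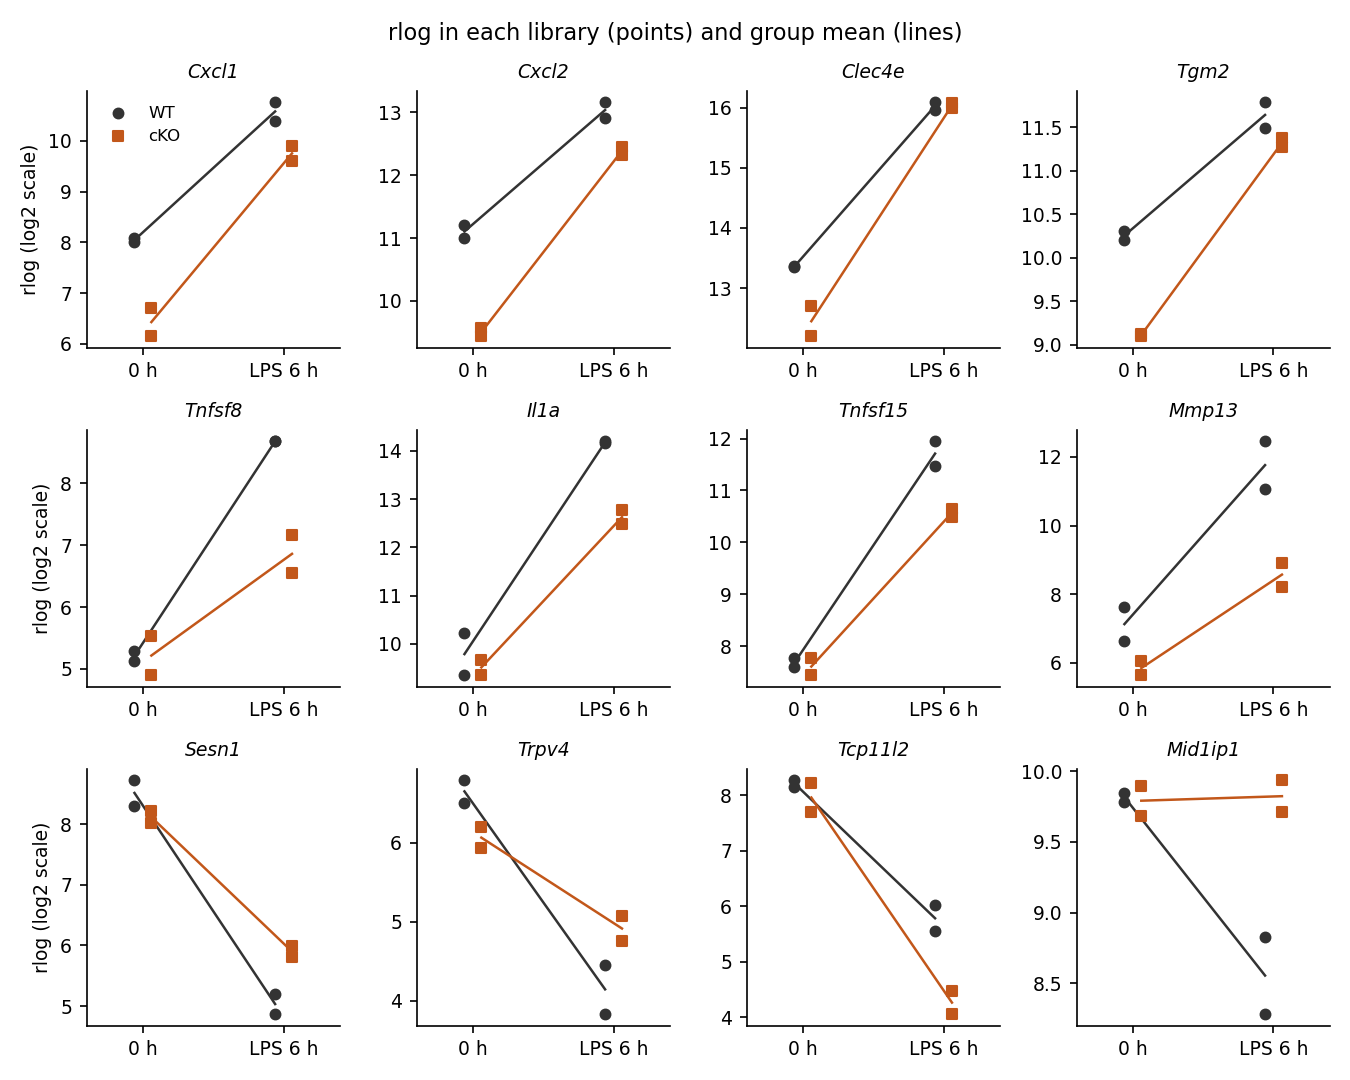
Rlog (vertical axis, log2 scale, its range set for each gene) of 12 genes in each library at 0 h and after 6 h of LPS, with WT as black circles, cKO as orange squares and lines through the group means. In the upper row the genotypes are further apart at 0 h than after LPS, in the middle row they are further apart after LPS, and the lower row shows genes that LPS lowered in at least 1 genotype.

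Promoters of 4 of these genes are shown to set a pair with larger rises in cKO beside a pair with smaller rises; they were chosen after their values were seen. Each is the 250 bases before the RefSeq transcription start on the GRCm38.p6 build, read 5′ to 3′ on the gene's strand. Capitals mark matches on either strand to 3 motifs, the kappaB motif of NF-kB (GGG and TTCC with any 3 bases between them), the ISRE motif of interferon-activated factors (GAAA and GAAA with any 2 bases between them) and the AP-1 motif TGANTCA, where N is any base. The positions are chr5:90890995-90891244 (plus strand) for Cxcl1, chr5:90903649-90903898 (plus) for Cxcl2, chr2:129309973-129310222 (minus) for Il1a and chr9:7272264-7272513 (plus) for Mmp13.
Cxcl1: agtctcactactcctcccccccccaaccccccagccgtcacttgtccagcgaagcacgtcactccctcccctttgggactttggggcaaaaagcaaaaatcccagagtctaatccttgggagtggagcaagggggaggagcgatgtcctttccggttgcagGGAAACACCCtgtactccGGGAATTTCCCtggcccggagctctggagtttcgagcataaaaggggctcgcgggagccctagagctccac
Cxcl2: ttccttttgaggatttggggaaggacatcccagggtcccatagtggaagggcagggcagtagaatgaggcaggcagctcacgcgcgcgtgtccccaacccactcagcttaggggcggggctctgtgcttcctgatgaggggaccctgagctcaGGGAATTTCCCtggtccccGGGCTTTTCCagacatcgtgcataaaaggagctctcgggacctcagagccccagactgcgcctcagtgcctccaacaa
Il1a: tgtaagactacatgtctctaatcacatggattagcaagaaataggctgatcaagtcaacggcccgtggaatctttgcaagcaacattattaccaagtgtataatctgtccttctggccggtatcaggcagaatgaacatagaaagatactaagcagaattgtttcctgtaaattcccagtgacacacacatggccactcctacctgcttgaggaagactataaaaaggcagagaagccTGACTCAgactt
Mmp13: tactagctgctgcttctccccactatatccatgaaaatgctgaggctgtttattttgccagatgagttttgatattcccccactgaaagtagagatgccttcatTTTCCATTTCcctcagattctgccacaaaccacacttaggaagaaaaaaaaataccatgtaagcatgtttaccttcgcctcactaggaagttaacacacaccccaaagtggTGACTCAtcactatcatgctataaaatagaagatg

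The Cxcl1 and Cxcl2 windows each held 3 kappaB matches and no match to the other motifs. A pair of these matches overlapped in each window, because the element reads as the motif on both strands (71 to 62 and 70 to 61 bases before the start in Cxcl1, 97 to 88 and 96 to 87 in Cxcl2). The Il1a window held 1 AP-1 match, 12 to 6 bases before the start, and the Mmp13 window held 1 AP-1 match at 35 to 29 and 1 ISRE match at 146 to 137. Of the 8600 tested genes with a promoter entry, 5.33% held a kappaB, 3.06% an ISRE and 4.43% an AP-1 match. Of 978 LPS-induced genes with an entry these shares were 7.06%, 8.49% and 7.36%. Of the 16 induced genes with larger rises in cKO at an unadjusted p under 0.05, 11 had an entry, and 4 held a kappaB, 0 an ISRE and 1 an AP-1 match. Of the 134 with smaller rises, 101 had an entry, and 4 (3.96%) held a kappaB, 5 (4.95%) an ISRE and 12 (11.9%) an AP-1 match. A match is a description of these letters and does not show binding, and these shares were not tested.

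Among genes that LPS lowered, Sesn1, a stress-induced regulator of growth signalling, had the smaller fall in cKO. It was at 8.72 and 8.30 in WT and at 8.21 and 8.02 in cKO before LPS, and at 5.20 and 4.87 in WT and 5.80 and 6.00 in cKO with LPS. The cKO libraries were the lower ones at 0 h and the higher ones after LPS. Sesn1 fell by 3.48 in WT and by 2.21 in cKO, a difference of 1.26 ± 0.28. Trpv4, a calcium-permeable ion channel, went from 6.79 and 6.51 to 4.46 and 3.83 in WT and from 6.19 and 5.93 to 5.07 and 4.76 in cKO. It showed the same crossing, with a difference of 1.35 ± 0.36. Sox7, a transcription factor, had a difference of 1.19 ± 0.39, Tsku, a secreted proteoglycan, 1.06 ± 0.42, Mrgpre, a receptor, 1.06 ± 0.46, and Tada2a, a subunit of histone acetyltransferase complexes, 0.99 ± 0.27. In the authors' deposited table the fold changes of all these genes differed by more than on the rlog scale, from 1.35 for Tsku to 2.53 for Sox7.

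A larger fall in cKO at an unadjusted p under 0.05 was found for 10 LPS-lowered genes, or 1.22% of them beside 3.89% of all genes lower at that threshold. Tcp11l2 was at 8.16 and 8.27 in WT and at 8.23 and 7.69 in cKO before LPS, and at 5.55 and 6.02 in WT and 4.47 and 4.06 in cKO with LPS. The groups overlapped at 0 h and were separate after LPS, a gap that passed the test (adjusted p = 0.020), and the difference was -1.26 ± 0.35. Arhgef18, a guanine nucleotide exchange factor, had a difference of -1.09 ± 0.31, and Rassf3, of the RASSF protein family, -0.75 ± 0.25. Ankrd37, a target of the hypoxia factor HIF-1, was higher in cKO by 1.47 at 0 h (adjusted p = 0.039) and had a difference of -0.72 ± 0.30. Klhdc4 had a difference of -0.62 ± 0.27, and Rpa3, a subunit of the replication protein A complex, -0.62 ± 0.25.

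Other genes had LPS changes of opposite sign in the genotypes, or a change past the threshold in 1 of them. All 4 WT changes were above 0 and all 4 cKO changes below 0 for 124 genes (1.07%), and the reverse held for 118 genes (1.02%). Mid1ip1, a regulator of fatty acid synthesis, was at 9.85 and 9.78 in WT and at 9.90 and 9.68 in cKO before LPS, and at 8.83 and 8.28 in WT and 9.94 and 9.71 in cKO with LPS. The WT libraries after LPS stood below the other 6. Mid1ip1 fell by 1.26 in WT (adjusted p = 0.00091), its change in cKO was 0.03 (adjusted p = 0.91), and the difference was 1.29 ± 0.26. Tmpo, which encodes a protein of the nuclear lamina, was at 5.79 and 6.05 in WT and at 6.26 and 6.13 in cKO before LPS, and at 7.09 and 7.43 in WT and 6.00 and 6.34 in cKO with LPS. Here the WT libraries after LPS stood above the other 6, and the difference was -1.36 ± 0.28.

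P3h1, a collagen prolyl hydroxylase, had an LPS change of -0.66 in WT and 0.84 in cKO, neither past the adjusted threshold, and a difference of 1.5005 ± 0.46. Tmem214, a membrane protein of the endoplasmic reticulum, fell by 1.06 in WT and had a change of 0.43 in cKO that did not pass (difference 1.48 ± 0.43). Letm1, a protein of the inner mitochondrial membrane, had a difference of 1.36 ± 0.45. All 3 were higher in cKO after LPS by 2.02 to 2.17 (limma, adjusted p = 0.016 to 0.020), a gap favoured by picking genes for their difference. Pde7b, a cyclic AMP phosphodiesterase, rose by 1.202 in WT, had a change of 0.02 in cKO and a difference of -1.19 ± 0.31. Cnnm2, a membrane protein of magnesium transport, had a difference of -1.16 ± 0.43, and Spink2, a protease inhibitor, -1.15 ± 0.37.

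Most of the classical indicators of macrophage activation were induced in both genotypes, and none of their differences reached an unadjusted p of 0.05. Tnf was at 9.58 and 9.21 in WT and 8.75 and 8.50 in cKO before LPS, and at 13.61 and 13.9997 in WT and 13.31 and 13.44 in cKO with LPS. The cKO libraries were the lower ones at both times, and Tnf rose by 4.41 in WT and by 4.75 in cKO (difference 0.34 ± 0.26). Il6 was at 6.11 and 5.001 in WT and 4.67 and 5.06 in cKO before LPS, and at 11.08 and 11.55 in WT and 9.61 and 9.71 in cKO with LPS. Il6 overlapped at 0 h and was lower in cKO after LPS by 1.65 ± 0.33 (adjusted p = 0.035), and its difference in rise was -0.96 ± 0.47, with values from -1.51 to -0.41 as each library was left out. Il10, an anti-inflammatory cytokine, rose by 1.61 in WT (adjusted p = 0.015) and had a change of 0.58 in cKO (adjusted p = 0.32), but the difference of -1.04 ± 0.60 was below 2 SE and ran from -1.63 to -0.45 as each library was left out.

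Nos2, the inducible nitric oxide synthase, varied widely within groups, with 6.06 and 4.45 in WT and 4.91 and 4.29 in cKO before LPS, and 12.26 and 11.26 in WT and 10.68 and 9.78 in cKO with LPS. Its difference was -0.87 ± 0.77 and ran from -1.67 to -0.06 as each library was left out. The differences of Il12b (-0.15 ± 0.65), Il1b (-0.16 ± 0.37), Cxcl10 (0.34 ± 0.84), Ccl5 (0.14 ± 0.87) and Arg1 (-0.12 ± 0.35) changed sign with the library left out. Il1b was nevertheless lower in cKO after LPS by 1.39 (adjusted p = 0.029). Ifnb1, the gene of interferon beta, lay below the minimum and was not tested, with 1.54 and 1.60 in WT and 1.52 and 1.85 in cKO before LPS, and 4.24 and 3.29 in WT and 2.94 and 2.47 in cKO with LPS. Both cKO libraries after LPS lay below both WT libraries.

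Gene lists of the LPS response differed in how their members lay around 0. The medians below stand beside -0.02 for all genes, and the counts at an unadjusted p under 0.05 beside 2.62% of all genes higher and 3.89% lower. Cytokines, chemokines, primary and secondary response genes and interferon-stimulated genes were mostly LPS-induced, a class with a median of -0.20 and 70.0% below 0. At an unadjusted p under 0.05, 1.23% of this class were higher and 10.3% lower. The shares of chemokines and secondary response genes below 0 (66.7% each) and the interferon-stimulated median of -0.23 were near those of this class. No list was tested as a set. Of 18 inflammatory cytokines, 14 lay below 0 and 2 (11.1%, near the class share) passed an unadjusted p of 0.05, Il1a and Tnfsf15, both lower. Their median was -0.36 and kept its sign in all settings, between -0.55 and -0.20 as each library was left out. Of 21 chemokines, 14 lay below 0 with a median of -0.27, which was 0.04 without WT 0 h replicate 2. Cxcl1 and Cxcl2 were higher, and Ccl25 was lower with a difference of -0.79. The lowest chemokine values belonged to Cxcl11 (-1.40 ± 0.89), Ccl7 (-1.16 ± 0.71), Cxcl9 (-1.09 ± 0.70) and Ccl8 (-1.04 ± 0.53). Each of these was below 2 SE in size, as was Ccl2 on the other side of 0 (0.66 ± 0.70).

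Of 18 primary response genes, 9 lay above 0 and 9 below (median -0.06). Of these, 3 (16.7%) were higher (Cxcl1, Cxcl2 and Tnfaip3) and 2 (11.1%) lower at an unadjusted p under 0.05, Il1a and Bcl2a1b, a survival factor with near-identical copies whose reads may be shared. Of 15 secondary response genes, 10 lay below 0 with a median of -0.25, which was 0.06 with quantile normalization and 0.10 without WT 0 h replicate 2. The median WT rise of the secondary genes was 4.69 and that of cKO 3.999. Il6, Il10, Nos2, Cxcl9 and the vasoconstrictor gene Edn1 (-0.85) had values between -1.09 and -0.85, and Mmp13 was the 1 member under the unadjusted threshold.

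Interferon-stimulated genes were induced in both genotypes, and 48 of 48 passed the adjusted threshold for their rise in WT and in cKO. Their median rise was 2.76 in WT and 2.65 in cKO. The difference lay below 0 for 41 of 48 members, yet none passed an unadjusted p of 0.05. The values ran from -0.68 for Mx2, an antiviral GTPase, to 0.34 for Cxcl10. Irgm1, an immunity-related GTPase, had the smallest p, with a difference of -0.60 ± 0.28. The median of -0.23 was 0.15 in replicate number 1 and -0.63 in number 2, and it was 0.12 without cKO 0 h replicate 2 and 0.05 with quantile normalization. Of 16 interferon regulatory factors and receptors, 10 lay below 0 with a median of -0.02. Irf8, a factor of macrophage identity, rose by 0.76 in WT, had a change of 0.21 in cKO and a difference of -0.55.

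Lists of LPS sensing and of its regulators had few members under the unadjusted threshold. Of 21 genes of LPS sensing and TLR adaptors, 13 lay above 0 and 0 passed an unadjusted p of 0.05 in limma; the smallest p was that of the kinase gene Irak4 (0.42 ± 0.22). Tlr4 had a difference of 0.34 ± 0.36 and Cd14 of 0.40 ± 0.38. Ly96, which encodes MD-2, lay on the other side of 0 at -0.42 ± 0.34. Of 11 NF-kB subunits and IkB proteins, Relb alone was under that threshold, and the list median was -0.01. Of 28 negative feedback genes 14 lay on each side, and Tnfaip3 was the 1 under the threshold. The medians of the primary response, sensing, NF-kB, interferon factor and negative feedback lists changed sign in 2 to 6 of the 17 other settings. Of 20 genes of the inflammasome and pyroptosis, 13 lay below 0, and the median of -0.10 ran from -0.21 to -0.0044 as each library was left out. The DNA sensor Aim2 (-0.68 ± 0.21) and the protease Casp1 (-0.62 ± 0.23) were lower at an unadjusted p under 0.05, 10% of the list. Of the 20 genes 11 were LPS-induced, and this share is near the 10.3% of the LPS-induced class.

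**Figure D4:**
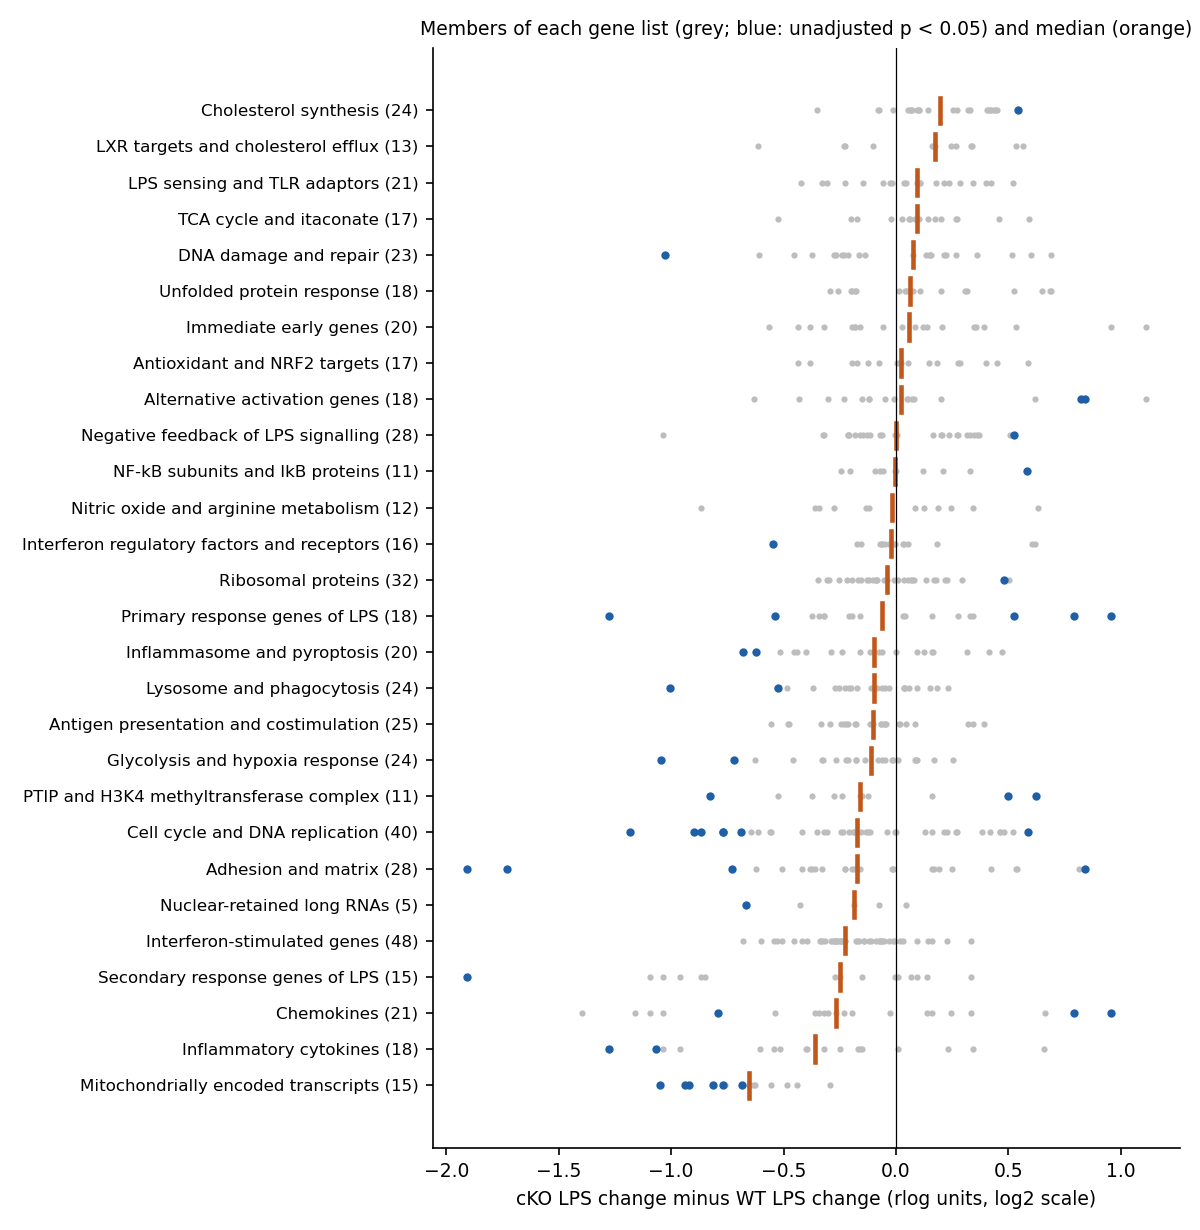
Difference in LPS change (horizontal axis, rlog units) of each member of 28 gene lists, ordered by the list's median, with the number of tested members in brackets. Blue points had an unadjusted p under 0.05 and orange bars are medians, which run from 0.20 for cholesterol synthesis to -0.66 for mitochondrially encoded transcripts.

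Outside the immune lists, mitochondrially encoded transcripts had the most negative median. All 15 lay below 0, beside 51.9% of all genes, and 6 of them (40%) did so at an unadjusted p under 0.05, beside 3.89%. Their median was -0.66 and ran from -1.02 to -0.38 as each library was left out. They had a median change of 0.81 in WT and 0.07 in cKO. Of the 15, 12 passed the adjusted threshold for a rise in WT and 0 in cKO, beside 42.2% and 37% of all genes in either direction. None of them passed the adjusted threshold for the difference itself. For mt-Rnr2, a ribosomal RNA of the mitochondrion, the WT libraries were at 14.18 and 14.66 before and 15.37 and 15.31 with LPS, and the cKO libraries at 14.28 and 14.72 before and 14.41 and 14.33 with LPS. The WT libraries after LPS stood above the other 6, and the difference was -1.05 ± 0.31. The subunit gene mt-Nd6 had a difference of -0.94 ± 0.28. These transcripts are poor in GC (median 36.0%), and the list median was -0.33 after correction for GC content and transcript length. Their level also marks RNA quality and mitochondrial content, which cannot be told apart here. Among 32 ribosomal protein genes the median was -0.04. Malat1, a nuclear-retained RNA, had a difference of -0.67 ± 0.28.

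Cholesterol synthesis genes lay on the other side. LPS lowered their median by 0.74 in WT and by 0.60 in cKO, and 20 of 24 (83.3%) had a difference above 0. This stands beside 48.1% of all genes and 64.9% of the LPS-lowered class, which held 7 of the 24. At an unadjusted p under 0.05, 1 (4.17%) was higher, beside 2.62% of all genes and 5.49% of that class. The median of 0.20 kept its sign in all settings but ranged from 0.03 to 0.40 as each library was left out, with -0.03 for replicate number 1 and 0.47 for number 2. Sqle, squalene epoxidase, was at 10.40 and 10.74 in WT and 10.63 and 10.63 in cKO before LPS, and at 9.24 and 9.05 in WT and 9.72 and 9.78 in cKO with LPS. Its WT libraries after LPS were the lowest, and the difference was 0.54 ± 0.20. Of 13 LXR targets and efflux genes, 9 lay above 0 (median 0.17, from 0.11 to 0.34 as each library was left out), and Fasn, the fatty acid synthase, had the smallest p (0.57 ± 0.31).

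Cell cycle and DNA replication genes included 6 lower members (15%, beside 3.89% of all genes) and 1 higher member (2.5%, beside 2.62%) at an unadjusted p under 0.05 among 40 (median -0.17, and 0.00 without WT LPS replicate 1). Ccne1, which encodes cyclin E1 of the entry into S phase, was at 6.62 and 6.79 in WT and 7.12 and 7.03 in cKO before LPS, and at 8.51 and 8.87 in WT and 8.05 and 7.71 in cKO with LPS. The cKO libraries were higher at 0 h and lower after LPS, and the difference was -1.18 ± 0.26. The mitotic motor Cenpe had a difference of -0.90 ± 0.28 and Cdc6, Tyms, Tpx2 and Top2a values from -0.87 to -0.69. The checkpoint kinase Bub1b was the higher member, at 0.59 ± 0.23. Of 24 glycolysis and hypoxia genes, Bnip3, a mitophagy receptor, had a difference of -1.05 ± 0.29, and Ankrd37 was the other lower member.

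Among 11 tested genes of the PTIP and H3K4 methyltransferase list, 8 lay below 0 with a median of -0.16. With GC content and length corrected for, this median was -0.06. Kmt2c, the gene of MLL3, was at 6.57 and 6.73 in WT and 6.89 and 6.86 in cKO before LPS, and at 6.95 and 7.23 in WT and 6.65 and 6.32 in cKO with LPS. Its cKO libraries were higher at 0 h and lower after LPS, and the difference was -0.83 ± 0.25. Wdr5, a core subunit of these complexes, had a difference of 0.50 ± 0.20. Paxip1 had a difference of 0.62 ± 0.26, with a fall of 0.55 in WT and a change of 0.07 in cKO, and 0.25 with quantile normalization. It is the targeted gene, and its cKO values (2.48 to 2.63) were low on a scale that shrinks low genes. This difference therefore says little about its response to LPS.

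The difference moved with the base composition of the transcripts. Across 11440 genes with an annotated sequence it correlated with GC content at r = 0.29 (Spearman's correlation 0.30), and with transcript length at a Spearman's correlation of 0.01. The gap between genotypes after LPS had a Spearman's correlation of 0.30 with GC content, and the gap at 0 h had 0.03. In single libraries, the deviation from the gene's mean had Spearman's correlations with GC content of -0.14 and -0.18 in WT after LPS and 0.10 and 0.07 in cKO after LPS. The median GC content was 53.9% for the 302 genes above 0 at an unadjusted p under 0.05, 43.8% for the 449 below 0 and 49.0% for all genes. When the genes were divided into 10 groups of nearly equal size by GC content, from the lowest to the highest group the median difference went from -0.19 to 0.15 over all genes and from -0.35 to 0.08 over LPS-induced genes. After a correction for GC content and length, chosen after seeing the data, the median of the induced class, drawn anew, was -0.18 over 1151 genes (71.8% below 0) and that of the lowered class 0.10 over 967 genes. The numbers at an unadjusted p under 0.05 were then 254 above and 310 below 0, and the smallest adjusted p was 0.936. Kynu stood at -0.98, Lztfl1 at -1.24, Tnfsf8 at -1.73, Cxcl2 at 1.05 and Mid1ip1 at 1.17 after this correction.

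**Figure D5:**
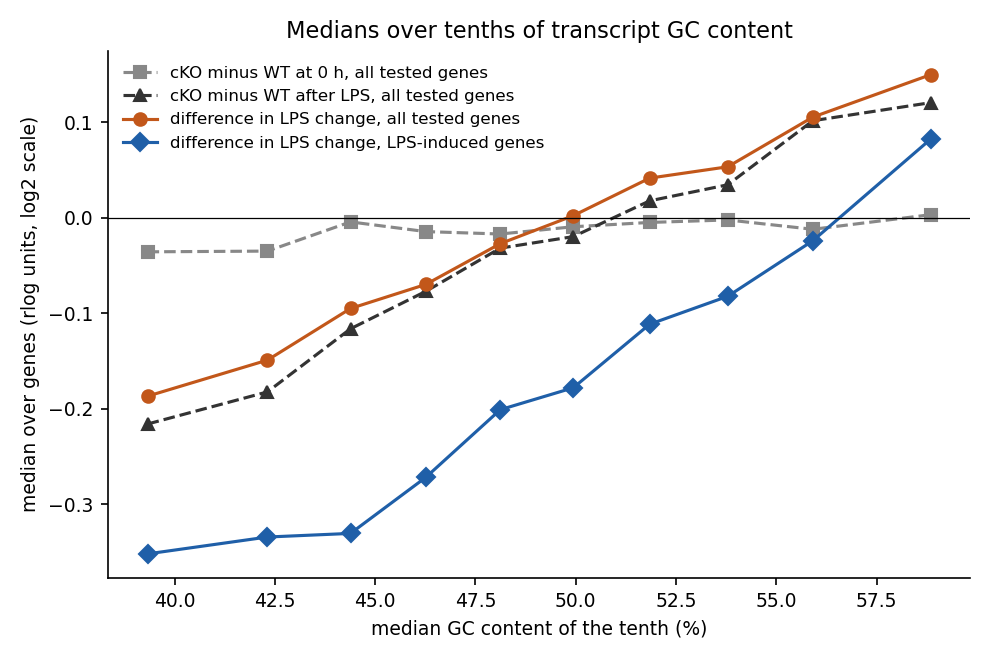
Medians in rlog units (vertical axis) over 10 nearly equal groups of genes by transcript GC content (horizontal axis, %) for the cKO minus WT gap at 0 h and after LPS and for the difference in LPS change over all and over LPS-induced genes. The gap at 0 h is nearly level, and the other 3 lines run upward, from -0.19 to 0.15 for all genes and from -0.35 to 0.08 for LPS-induced genes.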

How the data were processed

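Poly(A) RNA of 8 macrophage samples was sequenced. Among the tools listed in the submitters' processing notes are HISAT2 2.1.0, DESeq2, featureCounts and CASAVA, with the GRCm38 build; for their roles, settings, annotation and use of strand, the sources used here give nothing, so values of overlapping or antisense genes and of close paralogs are uncertain. The authors deposited log2 values from a regularised log transformation (rlog), from -2.31 to 19.31, which shrink genes with few reads. Per the file headers the table also holds the log2 fold changes by the authors with a p-value, raw and adjusted, for each; only the fold changes are quoted. No counts were used, so depth and counting error are unknown.

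The group means of all 8 samples were estimated by limma 3.58.1 under R 4.3.3 (eBayes with a variance trend; 4 residual and 4.4 prior degrees of freedom). Genes needed a mean rlog of at least 3, and p-values were adjusted by Benjamini and Hochberg over 11543 genes with a threshold of 0.05. The design had been planned for log2 values, and the alternatives were other filters, variance models and scalings, replicate blocks and each library left out. Position, length and GC content came from GENCODE M21, with a value for 11440 of the tested genes (99.1%); the GC and length correction subtracted a spline with 5 degrees of freedom in each and was chosen after seeing the data, as were the counts at an unadjusted p under 0.05. The fit was tested on simulated data.

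The gene set, the 36 gene lists and the tests were chosen with earlier results of these data known. Named genes were Paxip1, 10 indicator genes, the 6 with the largest difference in each direction among LPS-induced and LPS-lowered genes, the 4 in each direction among other genes, and up to 2 in each direction per list. They had to have an unadjusted p under 0.05 and, for the classes, no overlap between genotypes. Where no list member passed, the one with the smallest p was taken. Clone, Rik, Gm and date-like names (24 in the table) and pseudogenes were left out. Kynu, Itga4, Ly96, Ccl2, Tnfsf9, Tnfsf10 and list members given as ranges or lowest values were added after their values were seen. Promoters came from RefSeq's table for GRCm38.p6. Results for a few list members are not reported here.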

Additional observations from a re-analysis of the deposited data

How the results depend on the processing

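No gene passed the adjusted threshold in any of the 17 other settings, so the number of calls says little about stability; the numbers at an unadjusted p under 0.05 ran from 183 to 430 above 0 and from 273 to 537 below 0 as each library was left out, both lowest without cKO LPS replicate 2, beside 302 and 449. With the classes drawn anew in each setting, the median of LPS-induced genes was -0.110 with quantile normalization and ran from -0.252 (without WT LPS replicate 2) to -0.102 (without cKO 0 h replicate 2). The median of LPS-lowered genes ran from 0.079 (without cKO 0 h replicate 2) to 0.184 (without WT 0 h replicate 2). Both kept their sign throughout. Of 1298 values of named genes, 14 changed sign. Il12b was 0.30 with quantile normalization and 0.21, 0.28, 0.29 and 0.43 without WT 0 h replicate 2, WT LPS replicate 2, cKO LPS replicate 1 and cKO 0 h replicate 2. Il1b was 0.24 with quantile normalization and 0.07 and 0.26 without WT LPS replicate 1 and WT 0 h replicate 2, over a range from -0.58. Arg1 was 0.21 and 0.03 without replicate 1 of WT LPS and of cKO LPS, from a lowest value of -0.45. Cxcl10 was -0.73 and -0.09 without WT 0 h replicate 1 and WT LPS replicate 2 (highest 1.399), and Ccl5 was -1.08 and -0.10 without WT 0 h replicate 1 and cKO 0 h replicate 2 (highest 1.35); the cause was not tested. Of 476 list medians, 87 moved by more than the spread between replicates.

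The labels do not say what a replicate number pairs. Deviations of libraries with the same number correlated at r = 0.22 between the WT groups and 0.31 between the cKO groups, and at -0.04 to 0.20 across genotypes. With the number as a replicate block, 0 genes passed and 394 lay above and 514 below 0 at an unadjusted p under 0.05; with the block within genotype these were 446 and 550, and medians of both classes were as without a block. Leaving out a library leaves its group with 1 sample, which is then assumed to vary like the others. The main limits are the 2 libraries per group, the unknown depth and the shrinkage of low genes on the rlog scale.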
